A study of Homo sapiens with 8 samples.

Results

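Peaks of N6-methyladenosine (m6A) that lie within the 5' untranslated region (5' UTR) and reach no other part of the transcript are described here, in human osteosarcoma cells. They were chosen by the region label of the deposited peak lists, as the peaks labelled with the 5' UTR alone. They number 3598 of 130622 listed peaks over 4 lists: 906 of 32353 in U2OS with the control hairpin, 769 of 29992 in U2OS with the METTL14 hairpin, 926 of 33082 in 143B with the control hairpin and 997 of 35195 in 143B with the METTL14 hairpin. U2OS and 143B are established osteosarcoma cell lines. Cells of both lines carried lentiviral short hairpin RNA, either a control (NC, given as shNC in the treatment label) or one against METTL14 (shMETTL14), a subunit of the enzyme complex that methylates adenosines in messenger RNA. RNA enriched with an antibody against m6A was sequenced beside input RNA, with 1 library of each kind per group, 8 in all. With a single library of each kind per group, a difference between conditions cannot be set against any spread, and none is given a p-value. Whether each group is a pool or a clone, and how far METTL14 was lowered, is not given in the sources used here, and peak lists do not measure RNA levels.

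Most m6A in messenger RNA lies near stop codons and in long internal exons, in the sequence context DRACH (A, G or T, then A or G, then A, then C, then A, C or T). The 5' UTR holds less of it. There, m6A has been linked to translation that does not need the cap-binding factor, and antibodies against m6A also bind N6,2'-O-dimethyladenosine (m6Am), which is placed on the first transcribed base by another enzyme, PCIF1, and not by METTL3 and METTL14. A peak in the 5' UTR can therefore stand for either mark, and the lists do not separate them.

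The letters under the peaks were not read, because the coordinates are on hg19 and no genome of that build was used here. To show what a match near the start of such messages looks like, the bases downstream of the RefSeq transcript start (GRCh38.p14) were searched instead, on the transcribed strand. A DRACH match lies in bases 1 to 50 of 13613 of all 27305 RefSeq starts (49.9%), and of 6941 of the 15843 protein-coding starts (43.8%). Among the 7111 matched starts of genes with any peak, 2721 have one (38.3%). Of 1045 genes with a 5' UTR-only peak only 821 had an entry (78.6%), too few to compare their share, so that check is void. Starts of 10 genes named further on are shown, 30 bases each, with every DRACH match in capitals; a match is neither a mapped site nor the position of the peak, and the starts used by these cells are not known. They were picked from the named genes that have a match, to show where such genes had their peaks, and say nothing of how common a match is; many named genes with an entry have none, such as ASPSCR1, IER2 and CIC. ADNP had one in all 4 lists. MC1R, RAB43 and TIGD7 had one with NC and none at that place with shMETTL14 in both lines, BCAR1 and FAM19A2 in U2OS, and STK11 and UBP1 in 143B. AP5M1 (U2OS) and FOXO4 (143B) had one with shMETTL14 and none with NC:
ADNP, chr20:50931388-50931417, minus strand: gctagggcaggttcggGGACTcggtccgag
MC1R, chr16:89918862-89918891, plus strand: attcttcccaGGACCtcagcgcagccctgg
RAB43, chr3:129121893-129121922, minus strand: aggcgGAACCcgggtcgggctgaggtgggc
TIGD7, chr16:3305387-3305416, minus strand: tcctcgccagagAAACTgctgtcttccccg
BCAR1, chr16:75267978-75268007, minus strand: AGACAcctggtagtgtcaggagagggcatg
FAM19A2, chr12:62192739-62192768, minus strand: agttgctggggcTAACAGAACTggctgttg
STK11, chr19:1205778-1205807, plus strand: gaggtAAACAagatggcggcggcgtgtcgg
UBP1, chr3:33440375-33440404, minus strand: gaagcggcgcgtGAACCtaagtcggagtcg
AP5M1, chr14:57268983-57269012, plus strand: accgtgtatgagGAACTttgatccttgcgg
FOXO4, chrX:71095864-71095893, plus strand: ccggcgagtggtAAACAgagacgtcaggag
The matches differ in their letters. ADNP and MC1R have the GGAC core, whereas STK11 and FOXO4 share AAACA. Of the 8 matched genes among the 10 sites that lead all 4 lists, 1 (ADNP) has a match in bases 1 to 50. Of the matched lost genes of highest fold, 3 of 4 have one in U2OS and 2 of 4 in 143B. Of the matched gained genes of highest fold, 1 of 3 has one in each line. Of 3 further matched genes lost in both lines 2 have one, and of the 3 gained in both lines none. These groups are too small to compare.

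The 5' UTR-only peaks were a small class in every list. Their share of the list was 2.80% in U2OS NC (exact interval 2.62 to 2.99), 2.56% in U2OS shMETTL14 (2.39 to 2.75), 2.80% in 143B NC (2.62 to 2.98) and 2.83% in 143B shMETTL14 (2.66 to 3.01). Counted in joined sites of all classes the shares were 4.71% to 4.99%, and without members that another transcript places in another class 1.64% to 2.01%. Intervals are exact Clopper-Pearson intervals at the 95% level throughout; they hold counting error alone and count each peak as independent, which peaks on isoforms of 1 gene are not. The peaks lay on 501, 463, 530 and 559 genes in the same order, which were 7.60% to 8.08% of the genes with any peak. Joined where they overlap on the same strand, they formed 584, 510, 602 and 629 sites, with 1.51 to 1.59 listed peaks per site. Between 28.1% and 35.9% of the members overlapped a peak of the same list that another transcript placed in another region class. The gene of that transcript was not checked, so it can be an isoform or a transcript of another gene. The region class of these members therefore depends on the transcript. The lists give no read counts, and the depth behind any peak is therefore unknown.

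Most of the genes also had a listed peak of another region class. Such a peak can cover the same place on another isoform, so it need not lie elsewhere in the message. Of the genes with a 5' UTR-only peak, 396 of 501 in U2OS NC had a peak of another class in the same list, 366 of 463 in U2OS shMETTL14, 404 of 530 in 143B NC and 439 of 559 in 143B shMETTL14. The other peaks were most often within the coding sequence (51.7% to 54.6% of the genes), and less often within the 3' UTR (31.5% to 32.7%), across the stop codon (27.0% to 29.7%) or across the start codon (25.8% to 29.2%). Those with no other peak in their list made up 21.0% in both U2OS lists, 23.8% in 143B NC and 21.5% in 143B shMETTL14.

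The members were narrow. Spliced width, the summed length of a peak's exon blocks, had a median of 150 nt in U2OS NC (quartiles 91 to 210) and 149 nt in U2OS shMETTL14 (90 to 237). It was 150 nt in 143B NC (90 to 211) and 151 nt in 143B shMETTL14 (91 to 238). Over all peaks the medians were 210, 210, 209 and 236 nt. Among the other classes, only peaks within the 3' UTR came near, with medians of 178 to 180 nt, while peaks across the start codon had medians of 241 to 292 nt and peaks across the stop codon 300 to 352 nt. At the narrow end, 152 of 906 members in U2OS NC were 61 nt wide or less, 139 of 769 in U2OS shMETTL14, 204 of 926 in 143B NC and 166 of 997 in 143B shMETTL14. Widths came in steps, since 80.4% to 86.1% of the members were within 1 nt of a multiple of 30. Crossing of an exon junction was also recorded: 27.2% to 31.2% of the members had more than 1 block, up to 6, against 34.5% to 39.2% of all peaks and 68.7% to 74.0% of peaks across the start codon.

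**Figure D1:**
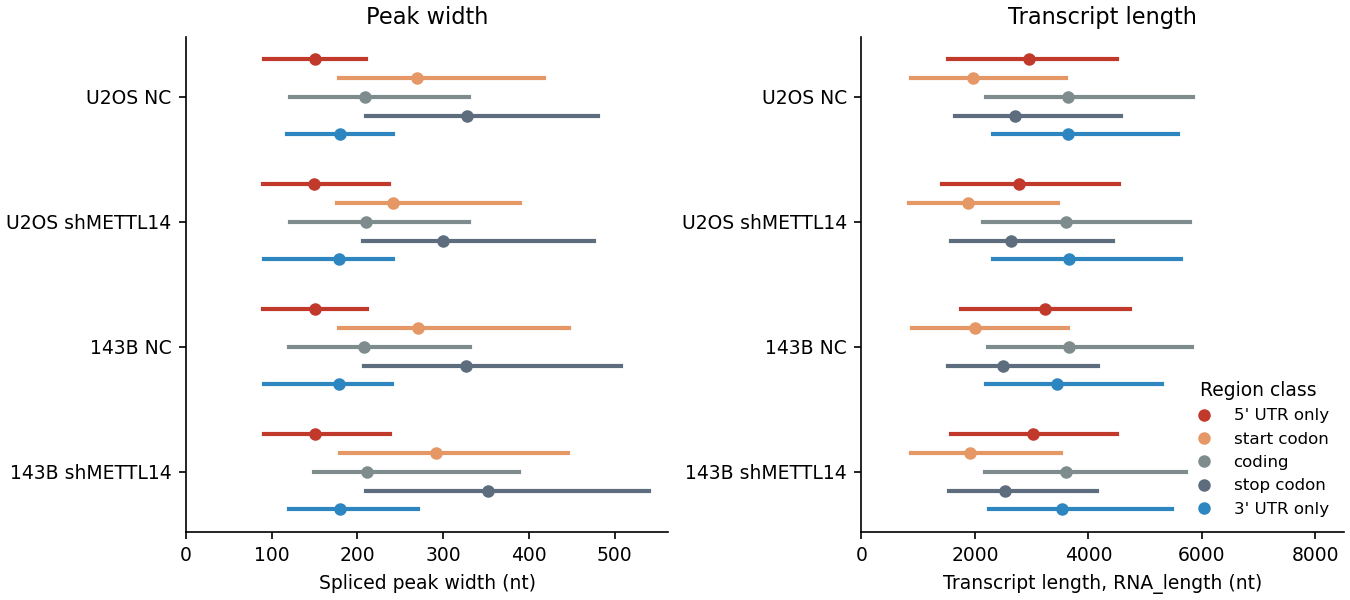
Median (points) and quartile range (lines) of the spliced peak width in nt (left) and of the length of the transcript a peak is listed on in nt (right), by region class, for the 4 lists. Peaks within the 5' UTR only have the lowest median width in each list (149 to 151 nt), and their transcripts have medians between 2769 and 3239 nt.

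RNA_length, the spliced length of the transcript on which a peak is listed, had a median of 2950 nt for members in U2OS NC and 2769 nt in U2OS shMETTL14. In 143B the medians were 3239 nt with NC and 3022 nt with shMETTL14. These lie below the medians over all peaks (3389, 3351, 3307 and 3284 nt) and above those of peaks across the start codon (1878 to 2009 nt). The range ran from 322 to 25575 nt. A member covered a median of 5.26% to 6.16% of its transcript, and a peak across the start codon 14.7% to 15.7%.

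The widest member of all lists, by the rule that names the 5 widest, lay on PRRC2B in 143B shMETTL14. That peak was 1136 nt wide. The PRRC2B site (chromosome 9, 134350180 to 134351435) had peaks of 718, 718, 957 and 1136 nt in U2OS NC, U2OS shMETTL14, 143B NC and 143B shMETTL14. It overlaps a peak that another transcript places in another class. TIAM2, an activator of the GTPase RAC1, had a site (chromosome 6, 155153861 to 155182028) with widths of 780, 600, 780 and 750 nt in the same order. In each list it too overlaps a peak that another transcript places in another class. The widest peak on SDCBP, the adaptor syntenin, was 748 nt in 143B shMETTL14. HMGA2, an architectural chromatin protein, reached 746 nt in U2OS shMETTL14, and so did LRRC4C, a synaptic adhesion protein whose site was in the U2OS lists alone.

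By the authors' values the members had a high fold enrichment and a weak p-value. Median fold enrichment was 4.28 in U2OS NC against 3.60 over all its peaks, and 4.36 against 3.54 in U2OS shMETTL14. It was 4.75 against 3.80 in 143B NC and 4.05 against 3.59 in 143B shMETTL14. A value of 10 or more was reached by 14.7%, 17.7%, 18.7% and 16.5% of the members, and by 6.25%, 7.59%, 7.58% and 8.23% of all peaks. Peaks within the 3' UTR reached it at 11.5%, 17.3%, 9.77% and 15.9%, so with shMETTL14 they stood near the members. Peaks across the start codon reached it at 11.1%, 7.24%, 12.8% and 7.59%. With the peaks of a list ranked by p-value and cut into quartiles, 13.1% of the members fell in the lowest-p quartile and 37.2% in the highest in U2OS NC. The shares were 13.5% and 42.1% for U2OS shMETTL14, and 9.50% and 38.7% for 143B NC. They were 8.73% and 42.1% for 143B shMETTL14. High fold values were coarse: the 133 members at 10 or more in U2OS NC took 79 distinct pairs of fold and p, and in 143B NC 27 of 173 shared a single pair, at a fold of 17.

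The design sets the METTL14 hairpin against the control hairpin within each line. Below, a member of an NC list is lost when its blocks meet no peak of any region class in the shMETTL14 list of that line, by 1 bp or more on the same strand, and a member of an shMETTL14 list is gained when it meets none with NC. The words describe the lists and not measured methylation. Going from NC to shMETTL14, 5' UTR-only peaks numbered 0.849 times as many in U2OS (all peaks, 0.927) and 1.08 times as many in 143B (all peaks, 1.06). Among peaks above the median fold of their list the ratios were 0.865 and 0.947, so the direction in 143B turned. In U2OS, 361 of 906 members were lost (39.8%, interval 36.6 to 43.1), where 26.9% of all NC peaks were. Gained in U2OS were 235 of 769 (30.6%, interval 27.3 to 34.0), against 20.9% of all shMETTL14 peaks. In 143B, 366 of 926 were lost (39.5%, interval 36.4 to 42.8), against 20.7% of all, and 401 of 997 were gained (40.2%, interval 37.2 to 43.3), against 27.3% of all. The members thus lay above the whole list in each of the 4 comparisons, which have no replicate check.

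Peaks across the start codon also reach into a 5' UTR, and 25.8% to 29.2% of the genes with a member had one. They were kept more often than the members. Of all peaks across the start codon, 19.4% were lost in U2OS and 17.2% in 143B, and 13.9% and 15.4% were gained. Peaks across the stop codon had the lowest shares of these classes (8.81% to 11.4%). Peaks within the 3' UTR came nearest to the members, with 36.8% lost and 29.5% gained in U2OS, and 29.5% lost and 39.1% gained in 143B. The interval of the members overlapped that of the 3' UTR peaks in 3 comparisons and not for losses in 143B, where the 3' UTR interval was 28.5 to 30.5.

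**Figure D2:**
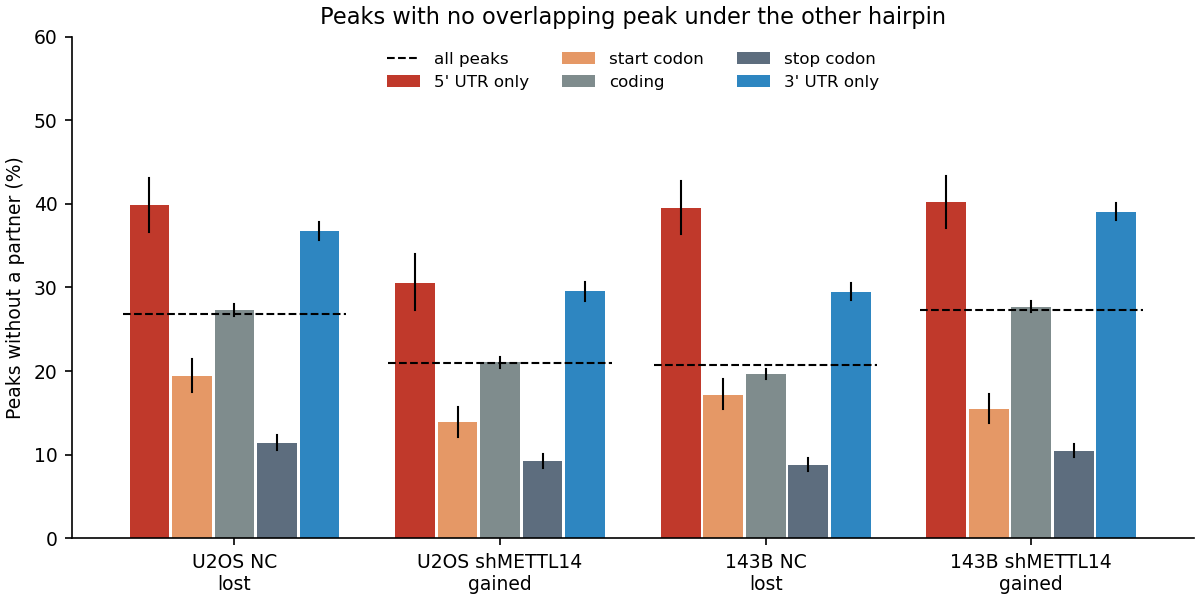
Share of peaks in percent (bars, with exact 95% intervals as lines) that have no overlapping peak under the other hairpin of the same line, by region class; the dashed lines give all peaks. The bars for the 5' UTR lie at 30.6% to 40.2%, above the dashed line in each comparison, and the 3' UTR bars are the next highest.

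The p-value and the width moved with these shares, and the fold enrichment did not do so in the same way. Within the lowest-p quartile of U2OS NC, 3 of 119 members were lost (2.52%), and within the highest, 221 of 337 (65.6%, interval 60.2 to 70.6), against 59.7% of the other peaks there. In the second and the third quartile of U2OS NC the members stood at 8.13% and 42.8% and the others at 10.0% and 36.8%. Gained peaks in U2OS had 54.6% in the highest-p quartile, where the others had 50.7%, and 23.4% against 25.7% in the third. In 143B NC the members stayed above the others in the second quartile (16.0% lost, interval 11.1 to 21.9, against 7.13%), in the third (43.0%, interval 37.2 to 49.0, against 25.6%) and in the highest (58.9%, interval 53.6 to 64.1, against 48.3%). In 143B shMETTL14 the gained share of members was below that of the others in the second quartile (6.12%, interval 3.20 to 10.5, against 11.4%), and the shares were 45.2% and 37.1% in the third quartile and 60.7% and 60.2% in the highest. Ranked by fold enrichment instead, the lost shares of U2OS NC members were 39.6%, 37.3%, 46.1% and 36.4% from the highest-fold quartile to the lowest. In 143B NC they were 47.3%, 37.1%, 38.6% and 25.2%, so the highest folds were lost most often there. In the highest-fold quartile the members stood above the others in each list, at 39.6% against 28.2%, 39.5% against 25.7%, 47.3% against 25.1% and 49.6% against 27.9%, U2OS first and NC before shMETTL14.

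**Figure D3:**
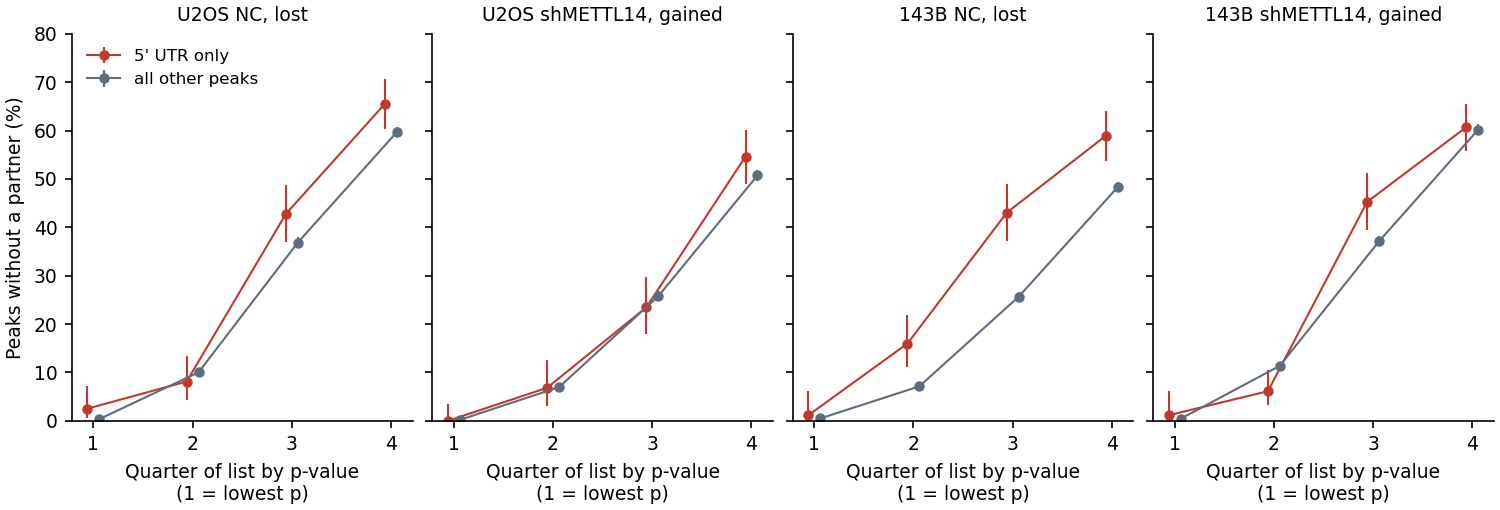
Share of peaks in percent without a partner under the other hairpin (points, exact 95% intervals), for 5' UTR-only peaks and all other peaks of the same quartile of the list by the authors' p-value, where 1 is the lowest p. The shares climb from 0% to 2.52% in the lowest-p quartile to 54.6% to 65.6% in the highest for the members, and the lines are furthest apart in 143B NC.

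By width, the picture was alike. Among members of 61 nt or less, 70.4% were lost in U2OS, and among those over 300 nt 2.54% (3 of 118). The other peaks of those widths had 66.5% and 2.83%. In 143B NC, 68.6% of the members of 61 nt or less were lost against 54.0% of the other peaks, 26.3% against 14.1% above 150 and up to 300 nt, and 9.30% (12 of 129, interval 4.90 to 15.7) against 1.28% over 300 nt. Members without a partner had a median width of 114 nt in U2OS NC and 91 nt in 143B NC, and those with a partner 180 nt in both. Their transcripts were somewhat longer, with median RNA_length of 3138 nt for lost and 2742 nt for kept members in U2OS, and 3431 and 3073 nt in 143B. With shMETTL14, the members' interval held the gained share of the other peaks in every width class of both lines. At 61 nt or less, 56.1% of members were gained in U2OS against 56.7% of the others, and 68.1% against 68.5% in 143B. Above 150 and up to 300 nt, U2OS members stood at 11.1% against 14.8%. Members were slightly higher from 62 to 150 nt in both lines, and in 143B in both classes above 150 nt. The part that p-value, fold and width have in the shares was not tested further.

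Transcript and gene context also went with loss. Members of a single exon block were lost more often than members that cross a junction, at 45.3% and 27.9% in U2OS and 42.4% and 31.7% in 143B. Members that another transcript places in another class were lost at 32.1% in U2OS and 26.9% in 143B, and the others at 44.0% and 44.4%. Where the gene had no other peak in the list, 101 of 193 members were lost in U2OS (52.3%) and 97 of 212 in 143B (45.8%), and where it had one, 36.5% and 37.7%.

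When a 5' UTR-only peak had a partner under the other hairpin, the partner was mostly in the same class. In U2OS NC, 476 of 545 kept members overlapped another 5' UTR-only peak (87.3%), 64 a peak across the start codon and no 5' UTR-only peak (11.7%), and 5 only peaks of other classes. In 143B NC the numbers were 492 of 560 (87.9%), 64 and 4. At the level of genes, 212 of the 501 genes in U2OS NC had no 5' UTR-only peak with shMETTL14, of which 138 still had a peak of another class and 74 had none. In 143B these were 227 of 530, with 161 and 66. The same counts over all genes of a list are not given here, so whether they are particular to the members is not known.

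The upstream edge of a kept member was more often the same as the downstream edge was. Of 437 overlapping pairs of 5' UTR-only peaks on the same transcript in U2OS, 176 had the same upstream edge (40.3%) and 133 the same downstream edge (30.4%) under both hairpins. In 143B, 159 of 466 pairs shared the upstream edge (34.1%) and 107 the downstream edge (23%). Between the lines with NC, 130 of 404 pairs shared the upstream edge (32.2%) and 75 the downstream edge (18.6%). Peaks across the start codon leaned the same way (49.9% and 36.2% in U2OS). Coding peaks did not lean (24.7% and 25.2%), and peaks across the stop codon leaned the other way (33.6% and 39.9%). The distance of these edges from the transcript start was not analysed here.

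Between the lines the members were shared less than the lists as a whole. In U2OS NC, 369 of 906 had no overlapping 143B NC peak (40.7%, interval 37.5 to 44.0), against 30.2% of all its peaks, and in 143B NC 446 of 926 had no U2OS NC peak (48.2%, interval 44.9 to 51.4), against 31.4%. With shMETTL14, 283 of 769 U2OS members had no 143B partner (36.8%, interval 33.4 to 40.3), against 22% of all, and 531 of 997 143B members had no U2OS partner (53.3%, interval 50.1 to 56.4), against 34.6%. Peaks across the start codon stood at 17.3% to 24.0% in the same comparisons. Peaks within the 3' UTR stood at 39.6% and 44.7% with NC and at 27.5% and 47.1% with shMETTL14, U2OS first.

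Joined over all 4 lists, the members formed 1251 sites. A peak of any class was present in all 4 lists at 283 of them (22.6%, interval 20.3 to 25), and a 5' UTR-only peak at 168 (13.4%). In a single list were 521 (41.6%, interval 38.9 to 44.4), of which 172 were in 143B shMETTL14, 154 in 143B NC, 113 in U2OS NC and 82 in U2OS shMETTL14. Peaks under both hairpins of a line and in neither list of the other were found at 68 sites for U2OS and 96 for 143B. Peaks with NC in both lines and with shMETTL14 in neither were found at 46 sites, and the reverse at 28. The counts of these combinations over sites of every class are not given here. Of all 18714 sites made from peaks of every class, 30.1% were in all 4 lists and 37.8% in 1; those sites chain more peaks together, so the shares are not strictly alike. Counted as genes, 169 of 1045 had a 5' UTR-only peak in all 4 lists (16.2%) and 506 in 1 (48.4%).

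**Figure D4:**
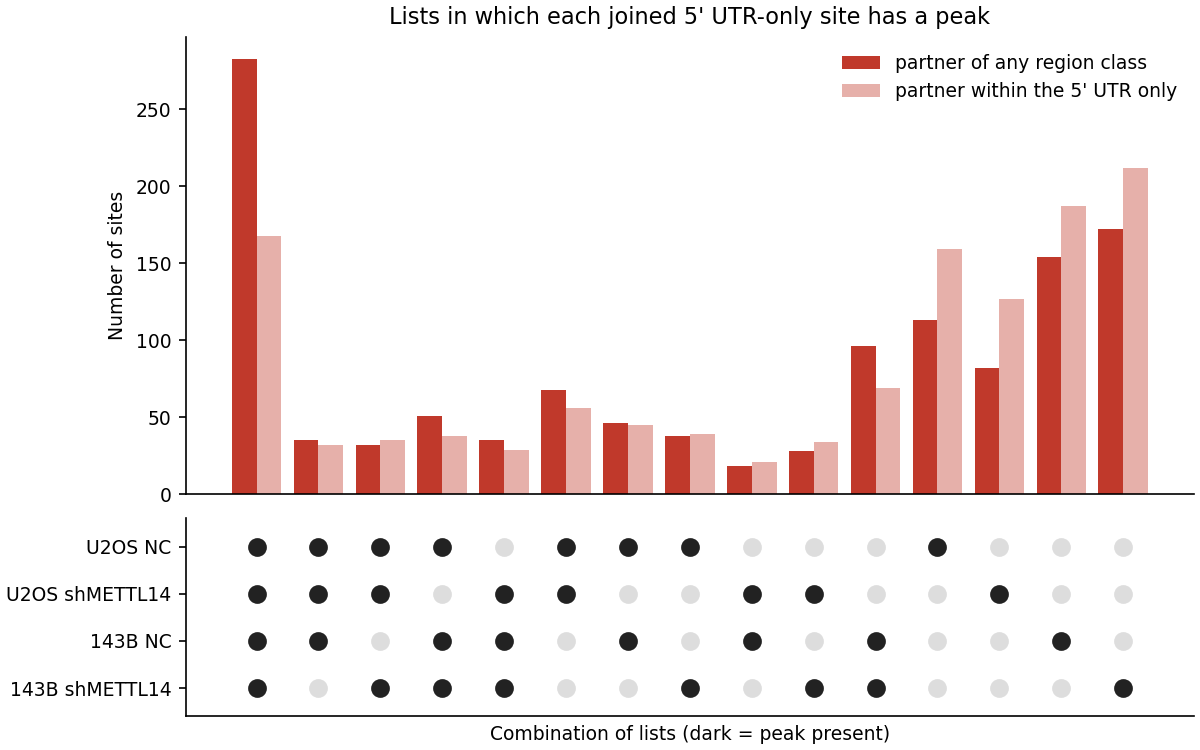
Number of the 1251 joined sites (bars) with a peak in each combination of the 4 lists, given by the dots below. The tallest bar is the 283 sites in all 4 lists, which falls to 168 when the partner has to lie within the 5' UTR only, and the 4 bars at the right are sites of a single list.

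The 10 sites that rank highest by fold enrichment over all 4 lists lay on YY1, PATZ1, ADNP, PIP4K2B, PTP4A2, VAMP3, SPPL3, ROCK2, C14orf132 and GIT1. Fold enrichment is the authors' value within each list; the 4 values are given side by side, in the order U2OS NC, U2OS shMETTL14, 143B NC and 143B shMETTL14, and are not compared. YY1, a zinc finger transcription factor, led with 19.3, 21.8, 28.7 and 43.2 at chromosome 14, 100705352 to 100705561 on the plus strand. Its peaks were 180, 180, 150 and 180 nt wide, and that of 143B shMETTL14 was the highest of all members of its list. PATZ1, also a zinc finger transcription factor, had 21.8, 16.3, 23.5 and 25.5 (chromosome 22, 31741979 to 31742218).

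ADNP, a homeodomain protein of chromatin remodelling, had 15.4, 28.3, 44.3 and 14.4, and its 143B NC value was the highest of that list's members. The ADNP site (chromosome 20, 49545360 to 49547958, minus strand) had 2 listed peaks in each list, with widths of 361 to 508 nt for the strongest peak. The lipid kinase PIP4K2B had 8.56, 14.2, 14.3 and 38.8 (chromosome 17, 36955770 to 36956098), and the phosphatase PTP4A2 10.5, 12.6, 15.8 and 17.6. The PTP4A2 peaks had the lowest p-values of the 10, from 7.94e-29 in U2OS shMETTL14 to 7.94e-72 in 143B shMETTL14. So the highest folds did not belong to the lowest p-values.

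VAMP3, a SNARE protein of recycling endosomes, had 10.3, 15.3, 9.78 and 24.4 (chromosome 1, 7832827 to 7833244). The intramembrane protease SPPL3 had 29.5, 6.32, 20.9 and 13.3 (chromosome 12, 121341697 to 121342084). ROCK2, a kinase that acts on actin and myosin downstream of RHOA, had 18.0, 7.08, 24.8 and 12.2 (chromosome 2, 11484352 to 11484681). C14orf132 had 10.9, 19.6, 7.83 and 17.7 (chromosome 14, 96556411 to 96556680). GIT1, a scaffold protein with ARF GTPase-activating function, had 7.70, 24.0, 8.48 and 17.7 (chromosome 17, 27916436 to 27916645).

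**Figure D5:**
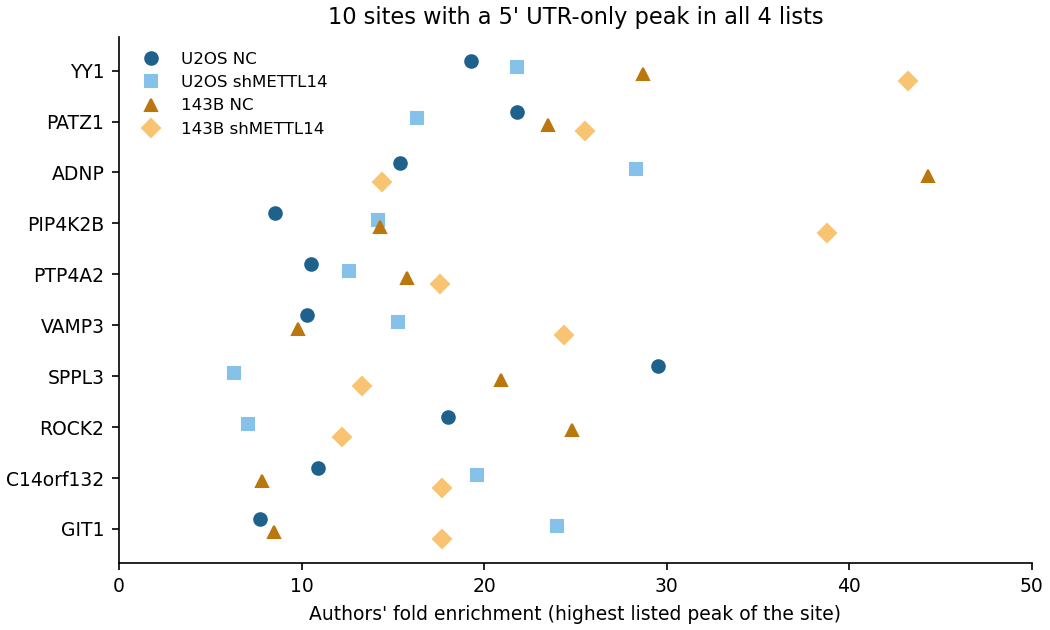
The authors' fold enrichment (horizontal axis, a linear ratio, highest listed peak of the site) in each of the 4 lists for the 10 sites with a 5' UTR-only peak in every list and the highest mean rank. Values run from 6.32 for SPPL3 in U2OS shMETTL14 to 44.3 for ADNP in 143B NC, and no list is the highest for all 10.

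Lost members of the highest fold in U2OS lay on BCAR1, ASPSCR1, FAM19A2, MC1R and RBPMS, with SERPINH1 and ZFYVE19 tied with the last 4 in fold and p. BCAR1, an adaptor of focal adhesions, had a fold of 20.5 at chromosome 16, 75298472 to 75299755, and those 4 had 19.3 each. MC1R, the melanocortin receptor, was listed at chromosome 16, 89985389 to 89985659, and ASPSCR1, a tether of glucose transporter vesicles, at chromosome 17, 79936514 to 79936661. BCAR1 also had a 5' UTR-only peak at another place (75298247 to 75298426) in both shMETTL14 lists (9.26 and 5.82). In both lists it overlaps a listed peak of another class on another transcript. FAM19A2, a secreted protein, had peaks at separate places in its 5' UTR, at 62585576 to 62585696 on chromosome 12 with NC and at 62585188 to 62585337 with shMETTL14 (fold 13.1). A 5' UTR-only peak on the gene thus remained in U2OS.

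Gained in U2OS were AP5M1, a subunit of an endosomal adaptor complex, and the immediate early gene IER2, with 21.8 each. SNRNP35, a protein of the minor spliceosome, followed with 20.7, the membrane ubiquitin ligase MARCH4 with 19.6 and KBTBD11 with 18.5. The IER2 peak (chromosome 19, 13263268 to 13263418, 151 nt) was in U2OS shMETTL14 alone. MARCH4 was in both 143B lists at the same place (chromosome 2, 217236034 to 217236541), with 7.43 and 2.39. For MARCH4 the U2OS NC list is therefore the 1 that lacks it.

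Lost members in 143B were led by STK11, the kinase LKB1 upstream of AMPK, with 31.3 (chromosome 19, 1205980 to 1206250, 271 nt), and by the transcription factor UBP1 with 30 (chromosome 3, 33481572 to 33481780). C9orf69 had 23.5. ETF1, the factor that releases finished proteins at stop codons, had 20.9, the lowest p among the lost genes tied at that fold. The C9orf69 and ETF1 peaks overlap a peak that another transcript places in another class. STK11, UBP1 and C9orf69 had a 5' UTR-only peak in 143B NC and in no other list.

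Gained in 143B were FOXO4, a transcription factor restrained by AKT, and the tyrosine kinase TNK2, with 23.3 each, then HAGHL, the transcriptional repressor CIC and CUEDC1 with 19.9 each, a fold that EMILIN1, GPR160 and TTC3 shared. The FOXO4 site (chromosome X, 70316136 to 70316315) was also in U2OS NC at 3.85 and in no U2OS shMETTL14 peak. TNK2 was in both U2OS lists, with 7.45 and 7.63, and only the U2OS NC peak overlapped the place gained in 143B. HAGHL and CIC were in 143B shMETTL14 alone. CUEDC1 was in both U2OS lists at an overlapping place, with folds of up to 27.0 and 4.63. Its 143B peaks overlap a peak that another transcript places in another class. The members with the highest folds were thus split between sites of 1 list and sites that the other line also had.

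At the 46 sites listed with NC in both lines and with shMETTL14 in neither, MC1R, RAB43, MARK4 and TIGD7 are among those of highest fold. MC1R had 19.3 in U2OS NC and 15.7 in 143B NC. RAB43, a small GTPase of the Golgi, had 10.3 and 18.3, the microtubule kinase MARK4 7.70 and 20.9, and TIGD7 7.38 and 15.7. MN1, a transcriptional regulator, was at such a site as well (chromosome 22, 28196826 to 28197036), with 2.41 (p = 0.00251) and 14.3 (p = 3.80e-05) by the authors' values. These 5 were weak by the authors' p-values, from 1.02e-05 for TIGD7 to 0.00251 for MN1, both in U2OS NC.

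At the 28 sites of the reverse pattern, the rule names AMIGO3, SNRNP35, ERMAP, NEIL1 and CCR10. SNRNP35 (chromosome 12, 123944310 to 123944430) had 20.7 in U2OS shMETTL14 and 14.4 in 143B shMETTL14. AMIGO3, an adhesion protein, had 14.2 and 17.7, and another site on the same gene (chromosome 3, 49758644 to 49759063) was in all 4 lists with 2.98 to 3.45. NEIL1, a DNA glycosylase of base excision repair, had 12 and 12.2, the chemokine receptor CCR10 15.3 and 8.03, and ERMAP 13.1 and 13.3. For AMIGO3 the place that both lines gained lay beside a kept one. Each AMIGO3 peak overlapped a listed peak that another transcript placed in another class. In 143B NC and both shMETTL14 lists AMIGO3 had no peak of another class, so there that transcript belongs to another gene.

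METTL14 and METTL3 had no 5' UTR-only peak in any list. Of 23 m6A writers, erasers and readers with any peak, 4 had one: WTAP, the regulatory subunit of the writer complex, in both 143B lists (6.20 and 4.14, chromosome 6, 160147276 to 160147725), the reader IGF2BP2 in both NC lists (9.63 and 4.43) and in no shMETTL14 list, HNRNPC in 143B shMETTL14 (2.42 and 1.63 at separate places), and YTHDF3. The 143B NC peaks of IGF2BP2, and not its U2OS NC peak, overlap a peak that another transcript places in another class. For comparison, 1045 of all 8758 genes with any peak had a 5' UTR-only peak in at least 1 list (11.9%), and the counts of the gene lists below stand against that share and are not a test.

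Among transcription factors, 4 of 19 immediate early and stress-induced genes had a member: FOSL2, an AP-1 subunit, in all 4 lists (12.1, 8.50, 17.0 and 13.3; chromosome 2, 28615755 to 28616114), EGR1 in both NC lists and no shMETTL14 list (5.14 and 13; chromosome 5, 137801239 to 137801388), IER2 and JUN. Of 62 HOX, SOX, FOX and GATA factors 8 had one, with FOXP4 in all 4 lists (18.0, 6.54, 15.0 and 9.23) and HOXC4 in U2OS NC alone (14.1). Of 353 genes named ZNF, most of which encode C2H2 zinc finger proteins, 17 had one (4.82%). ZNF219 was in all 4 lists with 73.2, 6.17, 7.17 and 5.54 (chromosome 14, 21566501 to 21566799), and its U2OS NC value was the highest of any member. ZNF415 (20.5 and 13.1) and ZNF467 (6.05 and 18.5) were in both U2OS lists and no 143B list. The ZNF415 peaks overlap a peak that another transcript places in another class.

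Of 24 translation factors 3 had a 5' UTR-only peak: EIF4G3, PABPC1, the poly(A)-binding protein, and EIF4G2, a relative of the scaffold eIF4G that lacks the eIF4E-binding part. PABPC1 had 9, 10, 2 and 8 such peaks at 1 joined site with folds of 1.76, 1.85, 1.61 and 2.34. The authors' p for its strongest peak was 2.51e-34 in U2OS NC and 1e-134 in 143B shMETTL14. The PABPC1 peaks of both 143B lists overlap a peak that another transcript places in another class. EIF4G3 had a site in U2OS NC alone with 7.70 (chromosome 1, 21502778 to 21503320). EIF4G2 had 6 sites, where the highest peak per site and list had a fold between 1.48 and 2.11. Of 52 cytosolic ribosomal protein genes with a peak, 2 had a 5' UTR-only peak (3.85%): RPL7 in U2OS NC (14.1) and RPL23A in 143B shMETTL14 (12.2), neither of them shared, and both families have near-identical copies that can split reads. Of 15 genes controlled by upstream reading frames or acting in the integrated stress response 3 had one, with ODC1, the first enzyme of polyamine synthesis, in all 4 lists (5.56, 2.43, 2.77 and 3.53), ATF5 in U2OS NC alone (4.28), and SLC35A4, whose upstream frame is itself translated, in U2OS NC (2.91). Of 19 heat shock and co-chaperone genes 2 had one, DNAJB1 in both U2OS lists (3.05 and 2.79) and HSPH1 in 3 lists. In U2OS shMETTL14 the peaks of both genes overlap a peak that another transcript places in another class, as does the HSPH1 peak of 143B NC.

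Of 43 Wnt, Notch, Hippo and TGF-beta genes 9 had a member, among them GSK3B, the kinase that marks beta-catenin for destruction, in all 4 lists (6.31, 2.82, 9.24 and 5.97; chromosome 3, 119812547 to 119813264). The Wnt receptor FZD1 was in 3 lists (7.70 and 3.81 in U2OS and 14.3 in 143B NC), and AXIN1 in 143B NC alone (11.7). Of 17 U2OS NC peaks on 6 of these genes 1 was lost, and of 14 in 143B NC, also on 6 genes, 4 were. Of all members 39.8% and 39.5% were lost, and of all peaks 26.9% and 20.7%. Peaks on isoforms of 1 gene are not independent. Of 39 kinase signalling and growth factor receptor genes 10 had a member. AKT1 was in 143B NC alone, with 8.48 and 4.08 at separate places. In 143B, 6 of the 8 NC peaks of this list were lost and all 6 of the shMETTL14 peaks gained, on 5 and 3 genes, where 39.5% and 40.2% of all members and 20.7% and 27.3% of all peaks were. Of 20 cell cycle genes 3 had a member: CCNE1 (14.3) and CDKN2C (3.11) in 143B NC alone, and CCND2 in both U2OS lists (1.72 and 1.61).

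Of 45 chromatin modifiers 10 had a member. EP300, a histone acetyltransferase, had a site in all 4 lists (3.85, 3.44, 8.48 and 2.72; chromosome 22, 41487880 to 41488089) and another at which 143B NC (14.3) and U2OS shMETTL14 (4.90) had a peak. Its relative CREBBP had a site in both shMETTL14 lists (14.2 and 7.76; chromosome 16, 3930278 to 3930398) and another in U2OS NC (14.1). ASXL2 had 18.0 in U2OS NC, 3.65 in 143B NC and 3.02 in 143B shMETTL14 at its upstream site (chromosome 2, 26101036 to 26101325). Of 15 bone and matrix genes 5 had a member. COL5A1, a chain of type V collagen, was in both U2OS lists (5.56 and 4.90), and SPARC, a matrix protein of bone, in both 143B lists (1.94 and 2.01). The SPARC peaks, and the 143B peaks at the ASXL2 site, overlap a peak that another transcript places in another class. As lineage checks, RUNX2 had peaks in all 4 lists and no 5' UTR-only peak, while the bone genes SP7, ALPL and COL1A2 had no peak in any list and COL1A1 had 2, 2, 0 and 1. The epithelial markers EPCAM and CDH1 and the blood markers PTPRC and CD3E had no peak in any list, while the keratin gene KRT8 had 8 to 10 per list and KRT18 none in U2OS and 4 and 5 in 143B. Peaks do not measure RNA, so these are no test of cell type.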

How the data were processed

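The 4 deposited peak lists, 1 for each immunoprecipitated library, were used; input libraries have no list of their own. Tools named in the submitters' processing notes are HISAT2, Trimmomatic and FastQC 0.11.5, and the build is hg19 (GRCh37). Which peak caller, threshold and annotation were used is not given in the sources used here. The p-value and the fold enrichment, a linear ratio, are the authors' deposited values per peak and were used only within a list. Members are peaks whose region label holds the 5' UTR alone; they and the 13 gene lists were chosen with earlier results of these data known. Shared means 1 bp or more of spliced blocks on 1 strand. With 1 list per group no test was made.

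Genes were named by a rule: the 10 top sites in all 4 lists, 5 lost and 5 gained per line and in both lines, the 5 widest, and 3 per gene list; some selected genes were not used here. Coordinates count from 1. Promoter starts are from RefSeq (GRCh38.p14), matched by symbol or older symbol for 7111 of 8758 genes. Python 3.11.15, numpy 2.4.6, pandas 2.3.3, scipy 1.17.1 and matplotlib 3.10.9 were used. Tested on simulated data from 906 peaks, overlap counting recovered losses of 9.38%, 31.0% and 48.9% as the same values. Whole sites were removed there, and kept peaks were left in place or shifted by less than the smallest width. Exact recovery was thus fixed in advance. It checks the counting alone, not calls between lists whose peaks differ in edges and width.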

Additional observations from a re-analysis of the deposited data

Results flagged for a closer look

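The number of 5' UTR-only peaks moved in opposite directions in the lines, and this difference was not tested, with 1 library per group. With shMETTL14 it was 0.849 times the NC number in U2OS and 1.08 times in 143B. For joined sites the ratios were 0.873 and 1.04, and for genes with such a peak 0.924 and 1.05. All peaks together moved the same ways (0.927 and 1.06). Among peaks above the median fold of their list both lines fell below 1, at 0.865 and 0.947.

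At 38 sites the peak was listed in U2OS NC and 143B shMETTL14 and in neither of the other lists, so it was lost in U2OS and gained in 143B. These include BCAR1 and FOXO4, and also CCDC14 (18.0 and 14.4) and UBTF, a factor of ribosomal RNA transcription (14.1 and 13.3), named after their values were seen. For BCAR1 the 143B shMETTL14 peak at that place is of another region class and not within the 5' UTR only. At 18 sites the pattern was the reverse, among them EP300 (4.90 and 14.3). These opposite patterns were not tested either. Their counts over sites of every class are not given here, so whether they are particular to the members is not known.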

How the results depend on the processing

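For 23 results, 126 values under alternatives were computed; 91 stayed within the 95% interval of the reported value (for medians, within its quartiles; for ratios of counts, within 1.5 times), 34 moved and 1 reversed. Requiring a 5' UTR-only partner gave lost shares of 47.5% (U2OS) and 46.9% (143B), gained shares of 39.9% and 50.3%, shares with a partner in the other line of 48.2% (U2OS NC), 54.2% (U2OS shMETTL14), 47.2% (143B NC) and 41.7% (143B shMETTL14), and 13.4% of sites in all 4 lists. Leaving out members that another transcript places in another class gave lost shares of 44.0% and 44.4% and gained shares of 35.9% and 44.3%. Partners in the other line were then found for 58.8% of U2OS shMETTL14, 44.4% of 143B NC and 39.2% of 143B shMETTL14 members. Of the sites, 16.4% were in all 4 lists. The remaining members' share of the list was 1.83%, 1.64%, 2.01% and 1.98% in U2OS NC, U2OS shMETTL14, 143B NC and 143B shMETTL14. Counted in sites, the share of the list was 4.99%, 4.71%, 4.91% and 4.88% in that order, and among the peaks above the list's median fold 3.53%, 3.28%, 3.63% and 3.22%. Among those peaks the gained share was 34.9% in U2OS, the lost share 43.5% in 143B, and the ratio of 5' UTR-only peaks with shMETTL14 to those with NC in 143B reversed to 0.947. An overlap of 50% of the shorter peak gave a gained share of 44.2% in 143B and partners in 143B NC for 55.5% of U2OS NC members, and partners within 100 bp a gained share of 36.9% in 143B. The cause of each move was not tested, beyond the stricter partner, which can only lower sharing. No paired analysis was possible because each group has 1 library, and for the same reason no library could be left out. Depth is unknown.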

Other observations

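Most genes had their 5' UTR-only peaks at a single joined site: 891 had 1, 115 had 2, 30 had 3, and 9 had more. SYNE2, a giant protein that links the nucleus to the cytoskeleton, had 7, EIF4G2 6 and PRRC2B and KIAA1731 5 each; these were singled out after the counts were seen. In SYNE2, EIF4G2 and PRRC2B another transcript places some of the sites in another region class. The 1251 sites were spread over the chromosomes, with most on chromosomes 1 (126), 19 (86), 11 (85) and 17 (84). Of the 1045 genes, 145 had 5' UTR-only peaks and no peak of another class in any of the 4 lists.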
